A study of Homo sapiens with 24 samples.

Results

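The difference between MST-312-treated and untreated P493 cells in how gene expression changed over 24 h of release was measured for 10246 genes. P493 is a human B cell line that carries a MYC transgene repressed by tetracycline, and MST-312 is a small-molecule inhibitor of telomerase. For each gene, the change between 0 h and 24 h in untreated cells was subtracted from the same change in MST-312-treated cells. This difference of differences is called the interaction below. It is positive where a gene rose more, or fell less, with MST-312. The members are all genes with a detected probe, 10246 of 10246 genes tested in the series, and the comparison uses 12 of its 24 arrays.

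The 4 groups, with 3 arrays each, were MST-312-treated cells at 24 h, MST-312-treated cells at 0 h, untreated cells at 24 h and untreated cells at 0 h. According to the series' design text, the treated cells spent 48 h in MST-312 together with tetracycline. They were then moved to fresh medium that lacked tetracycline and still held MST-312. At 0 h they had therefore already been exposed to the compound, so the interaction does not measure its onset. The labels give the other cells as untreated, with the same release times, and do not describe their tetracycline schedule. A difference in that schedule and an effect of MST-312 cannot be told apart here. The labels give no dose of MST-312 and do not say whether the 3 arrays of a group came from separate cultures. The p-values therefore measure the spread between these arrays, which may be technical. P493 is 1 established line, so no other genetic background enters the comparison.

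As background, tetracycline withdrawal in P493 cells restores MYC, a transcription factor that pairs with MAX and activates genes for ribosome production, nucleotide synthesis and the cell cycle. Resting cells that re-enter the cycle license replication origins with the MCM helicase. E2F factors, freed from RB1, drive genes of DNA synthesis, and a later programme drives mitosis. Interferon-stimulated genes are a separate programme, read by STAT and IRF factors at promoter elements called ISREs, and are known to be low when MYC is high in B cells.

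The arrays were alike in the share of probes detected, which was 34.3% to 38.0% on the 12 arrays. The lowest correlation between arrays of a group was 0.987. Mean raw intensity ran from 526.7 to 642.6 on the arrays at 0 h and from 627.2 to 763.8 on those at 24 h. Quantile normalization removes a shift of this kind. Of 7 B cell markers examined, 6 were detected on all 12 arrays and PAX5 was detected on none. Of 14 T cell markers examined, IL7R alone was detected on all 12 arrays and 4 were detected on none. Of 13 monocyte and macrophage markers, 4 were detected on all 12 arrays and 3 on none. Among 14 epithelial and fibroblast markers, EPCAM alone was detected on all 12. The summed linear level of the B cell markers ran from 44610 to 49960 with MST-312 at 24 h, from 73490 to 80610 with MST-312 at 0 h, from 61070 to 66970 in untreated cells at 24 h and from 117500 to 120600 in untreated cells at 0 h. The same sums for T cell markers were 1216 to 1309, 1219 to 1336, 2033 to 2265 and 1755 to 2141 in that order of groups. For monocyte and macrophage markers they were 2025 to 2607, 2572 to 2934, 2033 to 2310 and 4665 to 4968. For epithelial and fibroblast markers they were 1756 to 1908, 1008 to 1055, 983.4 to 1026 and 833.4 to 897.8. All of these sums include markers that were not detected, and single bright genes weigh heavily in some. IL7R was the brightest T cell marker in each group, at log2 levels of 9.45, 9.43, 10.54 and 10.31 in that order of groups. EPCAM stood at 10.19, 8.58, 8.61 and 6.47. The part of these markers in the results below was not tested. Both probes for TERT, the catalytic subunit of the telomerase that MST-312 inhibits, were undetected on every array of the series, so its level could not be compared.

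At an adjusted p below 0.05, 1490 genes had a higher interaction, which is 14.5% of the genes tested, and 1580 had a lower one, which is 15.4%. Either direction together took 30.0%. The median interaction over all genes was -0.007 on the log2 scale, with quartiles of -0.314 and 0.316 and a median SE of 0.187. A difference of at least 1 on the log2 scale was seen for 413 of the genes called higher and for 313 of those called lower. Release changed many genes in both treatments. With MST-312, 2507 genes (24.5%) were higher at 24 h than at 0 h and 2717 (26.5%) were lower, 51.0% in all. In untreated cells, 2973 (29.0%) were higher and 3128 (30.5%) were lower, 59.5% in all. The median size of the change over all genes was 0.351 with MST-312 and 0.435 in untreated cells. The changes with MST-312 and in untreated cells went the same way, both past the threshold, for 1340 rising and 1276 falling genes whose interaction was not called. The treatments also differed at each time. At 24 h, 2962 genes (28.9%) were higher with MST-312 than in untreated cells and 3369 (32.9%) were lower, 61.8% in all. At 0 h, 2833 genes (27.6%) were higher and 3247 (31.7%) were lower, 59.3% in all. The interaction was already called at earlier times for fewer genes. At 4 h it was higher for 11.3% and lower for 11.5% of genes, 22.7% in all, and at 8 h for 10.1% in each direction, 20.1% in all. All of these comparisons share arrays, so their counts are not independent of each other.

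Genes with a called interaction fell into classes by what each treatment did. Of the 1580 genes with a lower interaction, 506 rose in untreated cells and had no called change with MST-312. A further 363 rose in both, by less with MST-312. Another 341 fell with MST-312 and had no called change in untreated cells, 178 fell in both, and 162 fell with MST-312 while they rose in untreated cells. In the remaining 30, neither change was called. Of the 1490 genes with a higher interaction, 586 fell in untreated cells and had no called change with MST-312. A further 398 fell in both, by less with MST-312. Another 272 rose with MST-312 and had no called change in untreated cells, 79 rose in both, and 132 rose with MST-312 while they fell in untreated cells. In the remaining 23, neither change was called. Of all called genes, 460 were undetected on every array of 1 or more of the 4 groups. For these the array gives only a bound on the lower level, and the fitted value depends on the background. Where both treated groups were undetected, a change with MST-312 could not be measured. The interaction and its p-value then rest on the untreated change and do not test the response of treated cells.

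**Figure D1:**
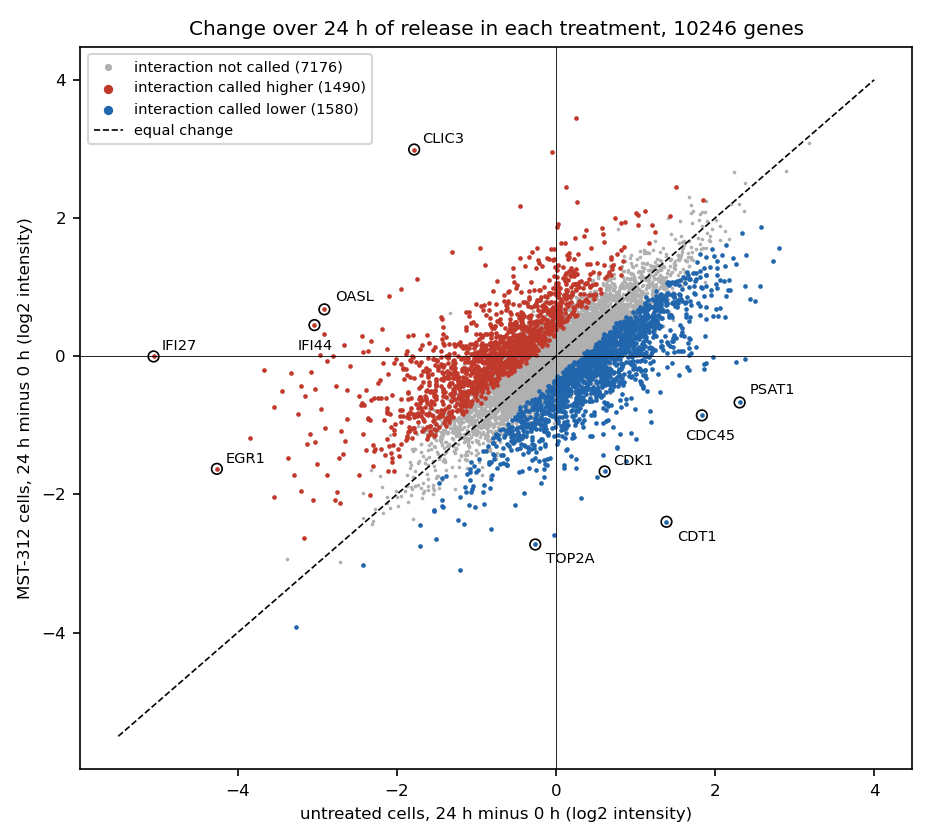
Change between 0 h and 24 h of release (log2 intensity, means of 3 arrays) with MST-312 (vertical axis) and in untreated cells (horizontal axis), 1 point per gene, for 10246 genes. Red points mark the 1490 genes with a higher interaction and blue points the 1580 with a lower one, and the dashed line marks equal change. CLIC3 lies at 2.99 with MST-312 and -1.78 in untreated cells, and CDT1 at -2.40 with MST-312 and 1.39 in untreated cells.

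The interaction was read over gene lists for pathways and complexes, and each count is given beside the 14.5% called higher and 15.4% called lower over all genes. DNA replication, nucleotide, repair and sterol lists had more lower than higher calls. Purine synthesis had 8 of 11 members lower, cholesterol synthesis and uptake 11 of 17, nucleotide supply 10 of 17, homologous recombination and Fanconi genes 10 of 17, and the polymerases with their clamp and loader 16 of 29. Interferon-stimulated effectors had 35 of 41 members higher and 0 lower. Immediate-early genes had 11 of 16 higher and 0 lower, and box C/D small nucleolar RNAs had 50 of 101 higher and 1 lower. Some lists were near or below the shares over all genes. Cytosolic ribosomal proteins had 10 of 67 lower and 1 higher, and p53 targets had 3 of 25 higher and 2 lower. These counts describe the lists, and no test across a list was made.

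**Figure D2:**
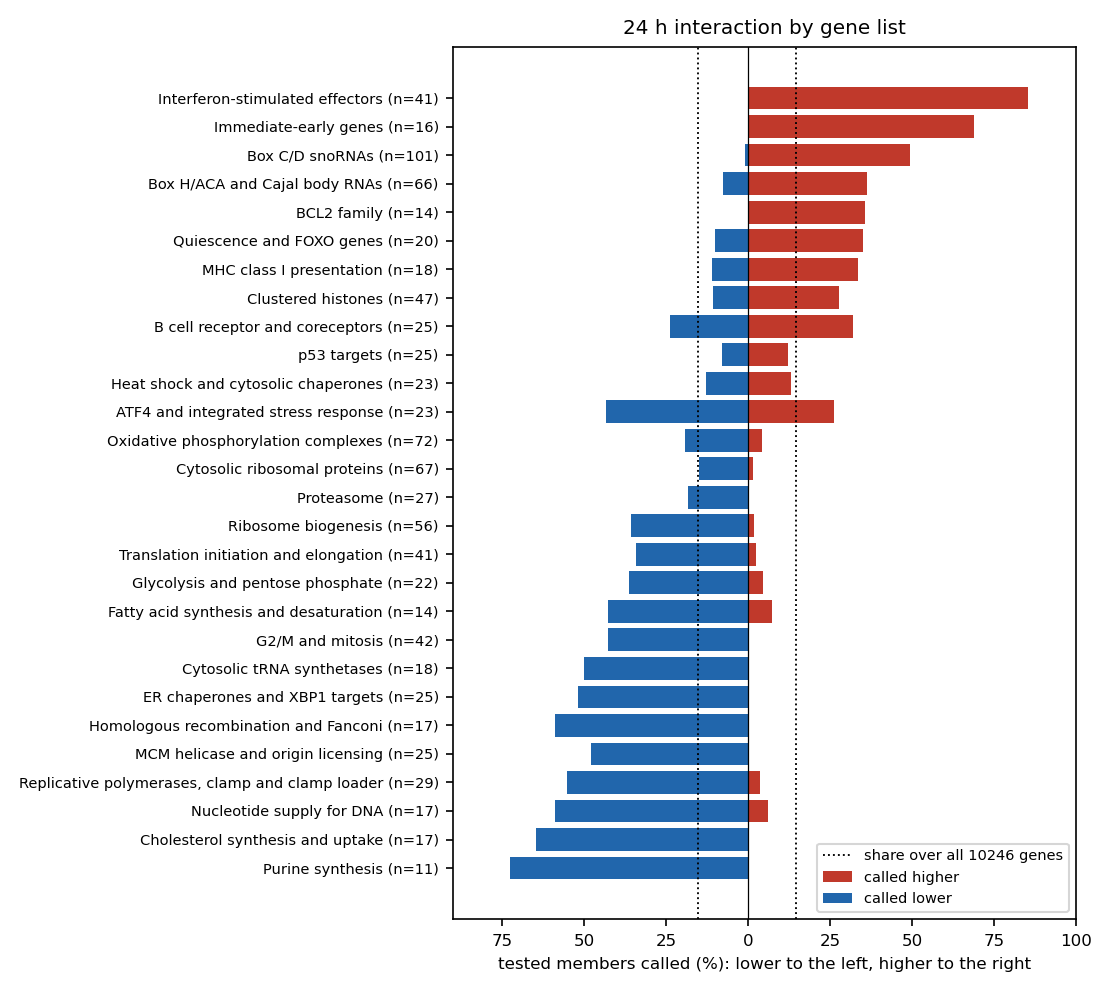
Percent of tested members with a called 24 h interaction in 28 gene lists (n is the number of members tested), with higher calls to the right in red and lower calls to the left in blue. Dotted lines mark the shares over all genes, 14.5% higher and 15.4% lower, which the interferon list passes on the right with 35 of 41 members and the purine list on the left with 8 of 11.

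Of 25 tested genes that license and fire replication origins, 8 rose and 3 fell over release with MST-312. Over all genes 24.5% rose and 26.5% fell. In untreated cells 19 of the 25 rose and 1 fell, against 29.0% and 30.5% of all genes. The interaction was lower for 12 and higher for 0, with a median of -0.65. The median release change was -0.01 with MST-312 and 0.95 in untreated cells. CDT1 loads the MCM helicase onto origins. It read 4.87, 5.08 and 5.21 (log2 intensity) with MST-312 at 24 h, where it was not detected on any array, and 7.42, 7.50 and 7.41 with MST-312 at 0 h. In untreated cells it read 8.87, 8.74 and 9.05 at 24 h and 7.57, 7.54 and 7.39 at 0 h. All 3 arrays with MST-312 at 24 h lay below every other array, and all 3 untreated arrays at 24 h lay above every other, while the groups at 0 h overlapped. The interaction was -3.79 (SE 0.30, adjusted p = 1.29e-08). Because CDT1 was undetected with MST-312 at 24 h, its fall with MST-312 is given as a bound and was at least 2.96-fold.

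CDC45, the helicase subunit that travels with MCM, read 5.07, 5.01 and 5.03 with MST-312 at 24 h and 5.995, 5.90 and 5.79 at 0 h. The untreated arrays read 9.80, 9.74 and 10.03 at 24 h and 8.03, 8.19 and 7.84 at 0 h. The 4 groups did not overlap, and untreated cells at 24 h were highest. At 24 h, CDC45 was at least 15.7-fold lower with MST-312 than in untreated cells, since none of the 3 treated arrays detected it. Its interaction was -2.69 (SE 0.15, adjusted p = 5.64e-11), and -1.85 with undetected groups set at the lowest detected signal. GINS2, a part of the GINS ring of the same helicase, read 7.23, 7.14 and 6.85 with MST-312 at 24 h and 6.89, 7.20 and 7.17 at 0 h. In untreated cells GINS2 read 10.80, 10.69 and 10.75 at 24 h and 8.77, 8.92 and 8.63 at 0 h. The treated groups overlapped each other, and both lay below all untreated arrays, among which 24 h was the higher time. The interaction of GINS2 was -1.98 (SE 0.18, adjusted p = 8.56e-08). MCM10, which joins the helicase to polymerase alpha, had an interaction of -2.35 (SE 0.27, adjusted p = 1.77e-06), with 0 of 3 arrays detecting it with MST-312 at 24 h. The origin recognition subunit ORC3 differed in pattern. It fell by 1.44 with MST-312 (adjusted p = 3.71e-07), while its untreated change of 0.19 did not pass (adjusted p = 0.332), and the interaction was -1.63 (SE 0.23, adjusted p = 2.43e-05). In these bulk RNA samples, a lower level in each cell and fewer cells that express a gene cannot be told apart. Without background correction the interactions were nearer 0, at -2.42 for CDT1 and -0.94 for ORC3, and stayed past the threshold.

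The polymerases, the sliding clamp and its loader had 16 of 29 members with a lower interaction and 1 with a higher one. The median was -0.62, from median release changes of 0.07 with MST-312 and 0.63 in untreated cells. RFC3, a clamp loader subunit, read 7.45, 7.37 and 7.67 with MST-312 at 24 h and 7.66, 7.38 and 7.42 at 0 h. Untreated cells gave 8.92, 8.88 and 8.76 at 24 h and 6.95, 7.46 and 7.12 at 0 h. The treated groups overlapped each other and the untreated arrays at 0 h, and the untreated arrays at 24 h stood above all others. The interaction of RFC3 was -1.66 (SE 0.20, adjusted p = 3.55e-06), and its other passing probe gave -1.87. POLE2, an accessory subunit of polymerase epsilon, had an interaction of -1.24 (SE 0.34, adjusted p = 0.00801). The chromatin assembly subunits CHAF1A and CHAF1B, which load histones behind the fork, had -1.53 and -1.47. CHAF1A was detected in untreated cells at 24 h alone, and without background correction its interaction was -0.89 (-0.93 with undetected groups at the lowest detected signal) and that of CHAF1B -0.73.

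Of 17 tested nucleotide supply genes, 10 had a lower interaction and 1 a higher one, with a median of -0.58. Thymidylate synthase, TYMS, read 10.94, 10.98 and 10.83 with MST-312 at 24 h and 10.94, 10.81 and 10.86 at 0 h. In untreated cells TYMS read 11.80, 11.66 and 11.56 at 24 h and 10.83, 10.74 and 10.86 at 0 h. The untreated arrays at 24 h lay above the other 9, which overlapped. Its interaction was -0.82 (SE 0.14, adjusted p = 0.000138). RRM1, the large subunit of ribonucleotide reductase, had an interaction of -0.82 (SE 0.14, adjusted p = 0.000172), and the mitochondrial folate enzyme MTHFD2 had -1.17 (SE 0.13, adjusted p = 1.19e-06). TK1, thymidine kinase, was not detected with MST-312 at 24 h. It was at least 4.55-fold lower there than in untreated cells at 24 h, with an interaction of -1.55 (SE 0.27, adjusted p = 0.000193), which was -0.73 with undetected groups at the lowest detected signal and -1.02 without background correction. Purine synthesis rose in both treatments. Of 11 tested genes, 11 were higher at 24 h with MST-312 and 11 in untreated cells, against 24.5% and 29.0% of all genes. The rise was smaller with MST-312, at a median of 0.72 against 1.19, and 8 of the 11 interactions were lower. PFAS, an enzyme of the purine ring pathway, rose by 1.45 with MST-312 and by 1.98 in untreated cells (interaction -0.53, SE 0.11, adjusted p = 0.000766). PPAT, the first committed enzyme of that pathway, rose by 1.15 and 1.81 in the same order (interaction -0.67, SE 0.14, adjusted p = 0.00137).

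Among E2F factors and pocket proteins, 5 of 11 had a lower interaction and 1 a higher one. E2F2, an activating E2F, had the most negative interaction of the list. With MST-312 it read 6.96, 6.64 and 6.63 at 24 h and 9.30, 9.31 and 9.37 at 0 h. In untreated cells it read 10.09, 10.01 and 10.29 at 24 h and 10.11, 10.26 and 10.09 at 0 h. E2F2 with MST-312 at 24 h lay below all other arrays, and the untreated groups overlapped each other. The interaction was -2.56 (SE 0.17, adjusted p = 1.04e-09). At earlier times the E2F2 interaction was 1.01 at 4 h and -0.66 at 8 h. RB1, the pocket protein that holds E2F back, fell by 1.33 with MST-312 (adjusted p = 7.56e-09), and its untreated change was -0.19 (adjusted p = 0.155), for an interaction of -1.13 (SE 0.16, adjusted p = 2.43e-05). E2F5, a repressive E2F, had -1.07 (SE 0.11, adjusted p = 2.52e-07). Of 14 G1 cyclins, kinases and inhibitors, 4 had a lower interaction and 1 a higher one. CDC25A, the phosphatase that activates CDK2, rose by 0.80 with MST-312 and by 2.50 in untreated cells (interaction -1.70, SE 0.23, adjusted p = 1.43e-05). CDKN2D, an inhibitor of CDK4 and CDK6, fell by 1.42 with MST-312 and fell by 2.68 in untreated cells, and was the list's higher interaction at 1.26 (SE 0.14, adjusted p = 1.5e-06).

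More mitotic genes fell than rose with MST-312. Of 42 tested G2/M genes, 21 fell and 4 rose between 0 h and 24 h with MST-312, against 26.5% and 24.5% of all genes. In untreated cells 5 fell and 11 rose, against 30.5% and 29.0% of all genes, so the rising share there was near that of all genes. The interaction was lower for 18 and higher for 0, with a median of -0.49. At 24 h, 41 of the 42 were lower with MST-312 than in untreated cells, against 32.9% of all genes, and at 0 h 35 were, against 31.7%. CDK1, the kinase that drives entry into mitosis, read 5.57, 6.24 and 6.58 with MST-312 at 24 h and 7.75, 7.78 and 7.86 at 0 h. In untreated cells CDK1 read 9.65, 9.86 and 9.79 at 24 h and 9.35, 9.09 and 9.02 at 0 h. The groups did not overlap, with MST-312 at 24 h lowest and untreated at 24 h highest. Its interaction was -2.28 (SE 0.26, adjusted p = 1.6e-06), and its dimmer probe gave -1.17. TOP2A, the topoisomerase that untangles sister chromatids, read 6.58, 5.81 and 5.604 with MST-312 at 24 h and 8.79, 8.61 and 8.76 at 0 h. Untreated cells gave 9.86, 9.77 and 9.69 at 24 h and 10.03, 10.13 and 9.94 at 0 h. TOP2A with MST-312 at 24 h was the lowest group, was detected on 1 of its 3 arrays, and had no overlap with the others. The interaction was -2.47 (SE 0.25, adjusted p = 2.52e-07). UBE2C, the ubiquitin-conjugating enzyme of the anaphase-promoting complex, had -1.87 (SE 0.26, adjusted p = 2.04e-05). AURKB, a kinase of the chromosomal passenger complex, was undetected with MST-312 at 24 h, where it was at least 5.34-fold lower than in untreated cells, with -1.72 (SE 0.20, adjusted p = 2.16e-06). NCAPG, a condensin subunit, was likewise undetected there and at least 8.84-fold lower, with -2.02 (SE 0.19, adjusted p = 1.05e-07). Outside the list, sororin (CDCA5), which protects cohesion, had -2.08 and the kinetochore gene CENPK had -2.06. Without background correction the values were -1.46 for CDK1, -1.45 for TOP2A, -1.24 for UBE2C, -1.27 for NCAPG and -1.30 for CENPK, all past the threshold. With undetected groups set at the lowest detected signal they were -0.76 for AURKB and -1.30 for NCAPG, and AURKB stood at -1.07 with a larger offset.

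The promoters of 3 of these genes are shown because 2 short elements are known from cell-cycle promoters, the E2F element and the cell-cycle homology region (CHR). Each runs 5′ to 3′ on the gene's strand, from 250 bases before to 50 after the start, from RefSeq on GRCh38.p14. Capitals mark matches on either strand to TTGGCGC or TTCGCGC (E2F) and to TTTGAA or TTCGAA (CHR), and overlapping matches of an element count as 1. CDK1 lies on chr10:60778081-60778380 (plus strand), TOP2A on chr17:40417847-40418146 (minus strand) and E2F2 on chr1:23531184-23531483 (minus strand).
CDK1: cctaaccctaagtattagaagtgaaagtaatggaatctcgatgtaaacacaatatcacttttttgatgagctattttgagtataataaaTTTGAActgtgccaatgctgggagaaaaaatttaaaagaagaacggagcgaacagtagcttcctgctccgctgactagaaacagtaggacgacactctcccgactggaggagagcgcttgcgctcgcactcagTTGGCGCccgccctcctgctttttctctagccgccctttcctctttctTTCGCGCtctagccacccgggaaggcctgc
TOP2A: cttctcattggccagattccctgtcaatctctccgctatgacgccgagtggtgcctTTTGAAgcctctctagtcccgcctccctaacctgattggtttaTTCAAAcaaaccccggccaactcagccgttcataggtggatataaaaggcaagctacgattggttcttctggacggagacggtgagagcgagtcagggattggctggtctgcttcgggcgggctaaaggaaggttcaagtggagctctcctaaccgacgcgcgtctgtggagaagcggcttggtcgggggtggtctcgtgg
E2F2: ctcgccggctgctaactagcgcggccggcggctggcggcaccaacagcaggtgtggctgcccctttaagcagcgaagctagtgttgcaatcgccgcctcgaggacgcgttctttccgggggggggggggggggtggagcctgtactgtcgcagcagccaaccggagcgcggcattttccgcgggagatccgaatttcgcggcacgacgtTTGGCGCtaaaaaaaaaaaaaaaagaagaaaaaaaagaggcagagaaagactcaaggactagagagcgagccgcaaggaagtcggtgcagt
CDK1 holds 2 E2F matches and 1 CHR match, TOP2A 2 CHR matches, and E2F2 1 E2F match. These 3 were chosen because they hold matches. The same windows of CDT1, CDC45, MCM10, GINS2, RFC3, CHEK1, UHRF1 and AURKB hold neither set of letters. The E2F letters searched were narrow, however. The windows of CDT1, CDC45 and MCM10 hold TTGGCGGG and that of UHRF1 holds TTCGCGGG, which were not counted. A window without a match may therefore still hold an E2F element in another form. Of 10246 tested genes, 8244 had a promoter in the table, of which 8.84% held the E2F letters and 11.7% the CHR letters. In the polymerase list 10 of 25 promoters (40%) held the E2F letters, in the MCM and licensing list 7 of 21 (33.3%) and in the G2/M list 6 of 36 (16.7%). The CHR letters were in 27 of 36 G2/M promoters (75%), 2 of 21 licensing promoters (9.52%) and 0 of 25 polymerase promoters. A match is a description of the letters, not of a factor bound there.

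**Figure D3:**
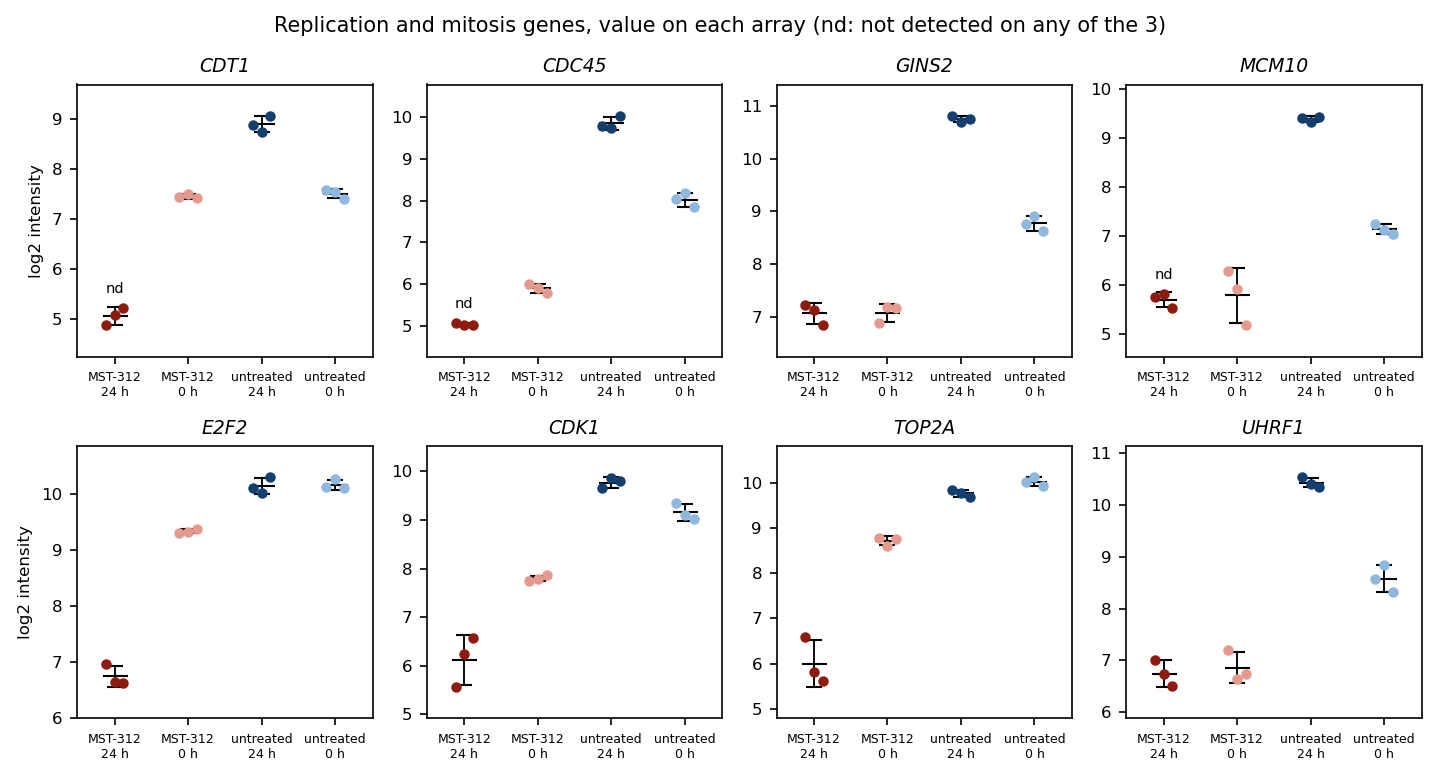
Log2 intensity on each of the 3 arrays per group (points), with the mean and SD (bars), for 8 replication and mitosis genes, in the order MST-312 at 24 h, MST-312 at 0 h, untreated at 24 h and untreated at 0 h. CDT1 means are 5.05, 7.45, 8.89 and 7.50 in that order, and "nd" marks groups in which no array detected the gene.

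Among DNA repair genes, the homologous recombination and Fanconi list had 10 of 17 lower and 0 higher, with a median of -0.75. EXO1, an exonuclease that resects DNA ends, was undetected in both treated groups. It read 8.64, 8.62 and 8.63 in untreated cells at 24 h and 6.35, 6.50 and 5.89 at 0 h, a rise of 2.38 (adjusted p = 1.18e-11). At 24 h EXO1 was at least 6.7-fold lower with MST-312 than in untreated cells, and the interaction was -2.42 (SE 0.20, adjusted p = 1.49e-08). Its other passing probe gave -1.19. The helicase BLM fell by 1.16 with MST-312 (interaction -1.60, SE 0.32, adjusted p = 0.000695). BRCA1, which directs recombination, fell by 0.57 with MST-312 and rose by 0.57 in untreated cells (interaction -1.14, SE 0.22, adjusted p = 0.000597). Checkpoint kinases and mediators had 6 of 13 lower and 1 higher. CHEK1, the kinase that halts the cycle under replication stress, was undetected in both treated groups and rose by 1.86 in untreated cells. Its interaction was -2.04 (SE 0.20, adjusted p = 2.08e-07). RAD9A, a clamp subunit that activates ATR signalling, was the higher member, at 1.22 (SE 0.28, adjusted p = 0.00267). Of 15 mismatch and base excision repair genes, 6 were lower and 0 higher. UNG, which removes uracil from DNA, rose by 1.18 with MST-312 and by 2.02 in untreated cells (interaction -0.84, SE 0.13, adjusted p = 6.09e-05). Without background correction the interactions were -1.54 for EXO1, -0.82 for BLM, -0.71 for BRCA1, -1.30 for CHEK1 and 0.62 for RAD9A.

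Of 12 DNA methylation and PRC2 genes, 4 had a lower interaction and 0 a higher one. UHRF1, which brings the maintenance methylase to replicated DNA, read 7.01, 6.73 and 6.50 with MST-312 at 24 h and 7.20, 6.63 and 6.74 at 0 h. It read 10.54, 10.42 and 10.36 in untreated cells at 24 h and 8.58, 8.85 and 8.31 at 0 h. The treated groups overlapped each other and lay below all untreated arrays, with untreated at 24 h highest. The interaction of UHRF1 was -1.97 (SE 0.23, adjusted p = 1.78e-06). The maintenance methylase itself, DNMT1, fell by 0.64 with MST-312 and rose by 0.30 in untreated cells (interaction -0.93, SE 0.10, adjusted p = 7.4e-07). Clustered histones were mixed, with 13 of 47 higher and 5 lower and a median of 0.06. The linker histone H1-2 read 10.32, 10.84 and 10.79 with MST-312 at 24 h and 11.82, 11.94 and 12.003 at 0 h. In untreated cells H1-2 read 8.70, 8.91 and 8.95 at 24 h and 11.85, 12.12 and 11.99 at 0 h. H1-2 fell in both, by 1.27 with MST-312 and fell by 3.13 in untreated cells, and the untreated arrays at 24 h were the lowest. Its interaction was 1.86 (SE 0.16, adjusted p = 4.84e-08). H3C12, an H3 gene of the same clusters, had -1.29 (SE 0.29, adjusted p = 0.00222), and -0.73 without background correction. Histone genes share near-identical sequence, so their separate probes are uncertain. The count of lower histones was 3 without replicate 1 of untreated cells at 24 h.

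MYC itself rose in both treatments. It read 15.25, 15.20 and 14.95 with MST-312 at 24 h and 13.88, 13.84 and 13.77 at 0 h. In untreated cells it read 14.91, 14.57 and 14.80 at 24 h and 14.18, 13.98 and 14.01 at 0 h. All 3 arrays with MST-312 at 24 h lay above the untreated arrays at 24 h, and all 3 at 0 h lay below the untreated arrays at 0 h, although the difference at 0 h did not pass (adjusted p = 0.063). The rise was 1.31 with MST-312 (adjusted p = 1.9e-09) and 0.70 in untreated cells (adjusted p = 5.77e-06), and the interaction was 0.60 (SE 0.14, adjusted p = 0.00355). The other MYC probe gave an interaction of 0.33 with an adjusted p of 0.0656 over all probes, so that probe alone did not pass. The labels and files do not say whether either probe reads the transgene, the endogenous gene or both. MAX, the partner of MYC, had an interaction of 0.02 (adjusted p = 0.936). Of its 3 other passing probes 1 passed the threshold, at 0.80, and the remaining 2 gave 0.65 and -0.26. Of 9 tested members of the network, 3 were higher and 1 lower. MXD3, a MAX partner that opposes MYC, fell in both and was undetected at 24 h in both treatments, with 1.23 (SE 0.19, adjusted p = 6.87e-05) for the interaction. MGA, another MAX partner, was the lower member, at -0.61 (SE 0.17, adjusted p = 0.0114). Without background correction these were 0.66 and -0.40.

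Most ribosome biogenesis genes rose in both treatments. Of 56 ribosome biogenesis genes, 48 rose with MST-312 and 52 in untreated cells, against 24.5% and 29.0% of all genes. Their median changes were 1.02 and 1.26 in that order. The interaction was lower for 20 and higher for 1, with a median of -0.24. The count of lower genes was 13 without replicate 2 of MST-312 at 24 h and 12 without replicate 3 of untreated cells at 24 h. NOLC1, a nucleolar scaffold, read 9.52, 9.47 and 9.32 with MST-312 at 24 h and 8.10, 8.26 and 8.41 at 0 h. Untreated cells gave 9.47, 9.601 and 9.43 at 24 h and 7.78, 7.60 and 7.47 at 0 h. The treated and untreated arrays overlapped at 24 h, whereas at 0 h the treated arrays lay above the untreated ones. The interaction of NOLC1 was -0.70 (SE 0.15, adjusted p = 0.00142). POLR1E, a subunit of RNA polymerase I, had -0.86 (SE 0.09, adjusted p = 3.98e-07), and its other probe -0.53. FBL, the methylase of box C/D particles, rose by 0.68 with MST-312 and 1.28 in untreated cells (interaction -0.61, SE 0.14, adjusted p = 0.00338). Cytosolic tRNA synthetases had 9 of 18 lower and 0 higher. TARS1, which charges threonine tRNA, fell by 0.34 with MST-312 and rose by 0.58 in untreated cells (interaction -0.92, SE 0.13, adjusted p = 1.95e-05). Translation initiation and elongation factors had 14 of 41 lower and 1 higher, with a median of -0.25. Of 10 telomerase and H/ACA protein genes, which also serve ribosomal RNA pseudouridylation, 3 were lower and 0 higher, with a median of -0.16.

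Serine synthesis and amino acid transport genes were among the lower calls of the ATF4 list, in which 10 of 23 genes had a lower interaction and 6 a higher one. The higher count was 3 under median scaling. PSAT1, the transaminase of serine synthesis, had the most negative interaction of all genes detected in the 4 groups. It read 9.36, 9.16 and 9.24 with MST-312 at 24 h and 9.90, 10.02 and 9.84 at 0 h. In untreated cells it read 9.87, 9.79 and 9.87 at 24 h and 7.59, 7.54 and 7.47 at 0 h. The untreated arrays at 0 h were far below the other 9, and the treated arrays at 24 h were below both the treated arrays at 0 h and the untreated ones at 24 h. The interaction was -2.98 (SE 0.12, adjusted p = 1.07e-12). PHGDH, the first enzyme of the same pathway, had -1.33 (SE 0.16, adjusted p = 3.43e-06). The cationic amino acid carrier SLC7A1 rose by 0.58 with MST-312 and 2.04 in untreated cells (interaction -1.45, SE 0.15, adjusted p = 2.65e-07), and the leucine carrier SLC7A5 had -1.34 (SE 0.15, adjusted p = 1.58e-06). DDIT3 and PPP1R15A were among the higher calls. DDIT3, the pro-apoptotic factor CHOP, read 10.61, 10.29 and 10.39 with MST-312 at 24 h and 10.16, 10.21 and 10.11 at 0 h. DDIT3 read 7.53, 7.47 and 7.38 in untreated cells at 24 h and 8.27, 8.23 and 8.31 at 0 h. Every treated array lay above every untreated one, and untreated cells at 24 h were lowest. Its interaction was 1.08 (SE 0.15, adjusted p = 2.01e-05). PPP1R15A, the phosphatase subunit that ends the stress response, fell by 0.60 with MST-312 and fell by 1.82 in untreated cells (interaction 1.22, SE 0.12, adjusted p = 2.23e-07). Of the 23 genes, 18 were higher with MST-312 than in untreated cells at 0 h, against 27.6% of all genes, and 14 were at 24 h, against 28.9%.

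Endoplasmic reticulum chaperones and XBP1 targets had 13 of 25 lower and 0 higher, with 8 lower under median scaling. With MST-312, 13 fell and 1 rose over release, against 26.5% and 24.5% of all genes. In untreated cells 4 fell and 12 rose, against 30.5% and 29.0% of all genes. XBP1, the transcription factor of the secretory stress response, read 12.53, 12.33 and 12.26 with MST-312 at 24 h and 13.02, 12.86 and 12.77 at 0 h. Untreated cells gave 11.21, 11.10 and 10.96 at 24 h and 10.72, 10.60 and 10.54 at 0 h. The treated arrays were above the untreated arrays at both times, and the gap was smaller at 24 h. The interaction of XBP1 was -0.98 (SE 0.14, adjusted p = 3.13e-05). DNAJB9, a chaperone induced by XBP1, had -1.22 (SE 0.10, adjusted p = 2.56e-08), and its rise of 1.05 was in untreated cells (adjusted p = 1.54e-10). MANF, a secreted stress protein, had -0.95 (SE 0.12, adjusted p = 7.39e-06), and HSP90B1, the chaperone GRP94, had -0.90 (SE 0.12, adjusted p = 1.05e-05). Of 23 heat shock and cytosolic chaperone genes, 3 were higher and 3 lower. Most of the 23 rose in both treatments, 19 with MST-312 and 20 in untreated cells, against 24.5% and 29.0% of all genes. HSPA1B, an inducible HSP70 gene, had -1.81 (SE 0.20, adjusted p = 7.26e-07). Its near-identical copy HSPA1A ran the other way, at 1.17 (SE 0.41, adjusted p = 0.0359), a call that was lost under 9 of 26 alternatives. Signal shared between their probes was not tested.

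Cholesterol synthesis and uptake had 11 of 17 lower and 0 higher, with a median of -0.72. With MST-312, 11 of the 17 fell and 0 rose, against 26.5% and 24.5% of all genes. In untreated cells 10 rose and 3 fell, against 29.0% and 30.5% of all genes. SQLE, squalene epoxidase, read 10.86, 10.72 and 10.43 with MST-312 at 24 h and 11.64, 11.64 and 11.64 at 0 h. In untreated cells SQLE read 10.74, 10.72 and 11.02 at 24 h and 10.55, 10.43 and 10.53 at 0 h. The treated arrays at 0 h were the highest group, and at 24 h the treated and untreated arrays overlapped. The interaction was -1.30 (SE 0.15, adjusted p = 1.17e-06), and the other SQLE probe gave -1.51. HMGCS1, an early enzyme of the pathway, fell by 0.84 with MST-312 and rose by 0.34 in untreated cells (interaction -1.18, SE 0.13, adjusted p = 8.2e-07). EBP, a sterol isomerase, had -1.17 (SE 0.18, adjusted p = 5.15e-05), and DHCR7, which makes the last step to cholesterol, had -1.03 (SE 0.23, adjusted p = 0.00227). Fatty acid synthesis and desaturation had 6 of 14 lower and 1 higher. ELOVL6, which lengthens fatty acids, fell by 0.50 with MST-312 and rose by 1.15 in untreated cells (interaction -1.65, SE 0.15, adjusted p = 4.84e-08). SCD, the stearoyl desaturase, rose by 0.50 and 1.67 in that order of treatments (interaction -1.17, SE 0.11, adjusted p = 7.39e-08). ACSS2, which makes acetyl-CoA from acetate, was the higher member at 1.52 (SE 0.15, adjusted p = 2.22e-07), was detected in untreated cells at 0 h alone, and stood at 0.64 without background correction. In glycolysis and the pentose phosphate pathway 8 of 22 were lower and 1, the glucose carrier SLC2A3, was higher, at 1.33 (SE 0.13, adjusted p = 3.06e-07).

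Interferon-stimulated effectors had higher calls in most members. Of 41 tested, 35 had a higher interaction and 0 a lower one, and the median was 1.45, or 1.56 with undetected groups at the lowest detected signal. Over release with MST-312, 20 fell and 2 rose, against 26.5% and 24.5% of all genes, with a median of -0.28. In untreated cells 40 of the 41 fell and 0 rose, against 30.5% and 29.0% of all genes, with a median of -1.92. The levels with MST-312 were already low at 0 h. At that time 39 of the 41 were lower with MST-312 than in untreated cells, with a median difference of -2.19, against 31.7% of all genes. At 24 h 27 were lower and 3 higher, with a median difference of -0.68, against 32.9% lower and 28.9% higher over all genes. Of the 41, 11 were undetected on every array of 1 or more groups, and where both treated groups were undetected no fall with MST-312 could be measured.

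IFI44, a cytoplasmic antiviral protein, read 6.81, 7.03 and 6.21 with MST-312 at 24 h and 6.62, 6.41 and 5.67 at 0 h. In untreated cells IFI44 read 8.50, 8.56 and 8.09 at 24 h and 11.43, 11.42 and 11.41 at 0 h. The treated groups overlapped each other and lay below all untreated arrays, and untreated cells at 0 h were highest. The interaction of IFI44 was 3.49 (SE 0.34, adjusted p = 1.9e-07). IFIT1, which binds viral RNA lacking the host cap mark, read 8.09, 7.95 and 8.01 with MST-312 at 24 h and 7.52, 7.71 and 7.61 at 0 h. IFIT1 read 10.05, 10.03 and 10.08 in untreated cells at 24 h and 12.10, 12.40 and 12.22 at 0 h. No groups overlapped, and the treated cells rose by 0.40 (adjusted p = 0.000931) where the untreated fell by 2.19 (adjusted p = 8.37e-14). Its interaction was 2.59 (SE 0.13, adjusted p = 1.33e-11). ISG15, a ubiquitin-like modifier, read 11.23, 11.05 and 11.08 with MST-312 at 24 h and 10.84, 10.94 and 10.90 at 0 h. Untreated cells gave 12.09, 11.87 and 11.94 at 24 h and 14.31, 14.34 and 14.22 at 0 h. The treated arrays lay below the untreated ones at both times, by less at 24 h. The interaction of ISG15 was 2.55 (SE 0.15, adjusted p = 2.26e-10).

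IFI27, a mitochondrial interferon-induced protein, was detected in untreated cells at 0 h alone. It read 4.83, 4.95 and 4.83 with MST-312 at 24 h and 4.88, 4.91 and 4.82 at 0 h. The untreated arrays read 5.24, 5.54 and 5.33 at 24 h and 10.43, 10.55 and 10.31 at 0 h. The last group stood apart from the other 9 arrays. IFI27 was at least 23.7-fold lower at 24 h than at 0 h in untreated cells, and at 0 h at least 23.6-fold lower with MST-312 than in untreated cells. The fitted interaction was 5.05 (SE 0.13, adjusted p = 7.52e-16), and 4.58 with undetected groups at the lowest detected signal. OASL, an antiviral relative of the oligoadenylate synthetases, was detected on 2 of 3 arrays with MST-312 at 24 h and on none with MST-312 at 0 h or in untreated cells at 24 h. It was at least 4.58-fold lower at 24 h than at 0 h in untreated cells, with an interaction of 3.59 (SE 0.17, adjusted p = 5.06e-12), or 2.21 with undetected groups at the lowest detected signal. DDX60, a helicase that aids viral RNA sensing, had 3.23 (SE 0.35, adjusted p = 8.16e-07), and IFIT3, a partner of IFIT1, had 2.95 (SE 0.21, adjusted p = 2.41e-09). IFI35, which binds NMI, had 2.58 (SE 0.17, adjusted p = 1.04e-09), and the RNA sensor DHX58 (LGP2), outside the list, had 2.80 (SE 0.25, adjusted p = 4.41e-08). LGALS3BP, a secreted glycoprotein that binds galectins, was detected in untreated cells at 0 h alone, with 2.80 (SE 0.17, adjusted p = 4.02e-10). As for IFI27, its interaction rests on the untreated fall, and a change with MST-312 could not be measured. Without background correction the interactions were 2.11 for OASL, 2.09 for DDX60, 1.69 for DHX58 and 1.66 for LGALS3BP.

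Promoters of 3 of these genes are shown because the ISRE is the element at which interferon signals are read. Each is from RefSeq on GRCh38.p14 and runs 5′ to 3′ on the gene's strand, from 250 bases before to 50 after the start. Capitals mark matches on either strand to TTTCNNTTTC, a form of the ISRE core that was chosen after the values were seen. IFI27 lies on chr14:94110486-94110785 (plus strand), IFIT1 on chr10:89392373-89392672 (plus strand) and DDX60 on chr4:168318703-168319002 (minus strand).
IFI27: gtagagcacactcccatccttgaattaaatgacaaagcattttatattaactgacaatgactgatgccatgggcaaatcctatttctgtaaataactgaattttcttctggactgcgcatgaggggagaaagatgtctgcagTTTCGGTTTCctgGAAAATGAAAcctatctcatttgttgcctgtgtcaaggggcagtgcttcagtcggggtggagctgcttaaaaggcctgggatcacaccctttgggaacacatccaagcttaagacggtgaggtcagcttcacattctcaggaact
IFIT1: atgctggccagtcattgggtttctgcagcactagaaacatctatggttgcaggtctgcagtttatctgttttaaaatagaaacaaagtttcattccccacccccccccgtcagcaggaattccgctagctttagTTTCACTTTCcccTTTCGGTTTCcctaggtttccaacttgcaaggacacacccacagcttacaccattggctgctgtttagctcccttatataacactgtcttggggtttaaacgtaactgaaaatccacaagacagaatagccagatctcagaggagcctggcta
DDX60: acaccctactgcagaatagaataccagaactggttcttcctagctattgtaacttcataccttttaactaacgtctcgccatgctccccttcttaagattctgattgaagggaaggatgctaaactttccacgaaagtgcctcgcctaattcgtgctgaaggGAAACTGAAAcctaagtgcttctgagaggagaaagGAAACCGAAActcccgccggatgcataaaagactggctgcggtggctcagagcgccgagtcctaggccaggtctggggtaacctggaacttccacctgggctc
Each of the 3 holds 2 matches. The same windows of IFIT3 and IFI44L also hold 2, whereas those of ISG15 and IFI44 hold 1. Over all tested genes with a promoter in the table, 254 of 8244 (3.08%) held these letters, and in the interferon list 24 of 34 (70.6%) did. The E2F letters were in 3 of the same 34 promoters (8.82%).

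**Figure D4:**
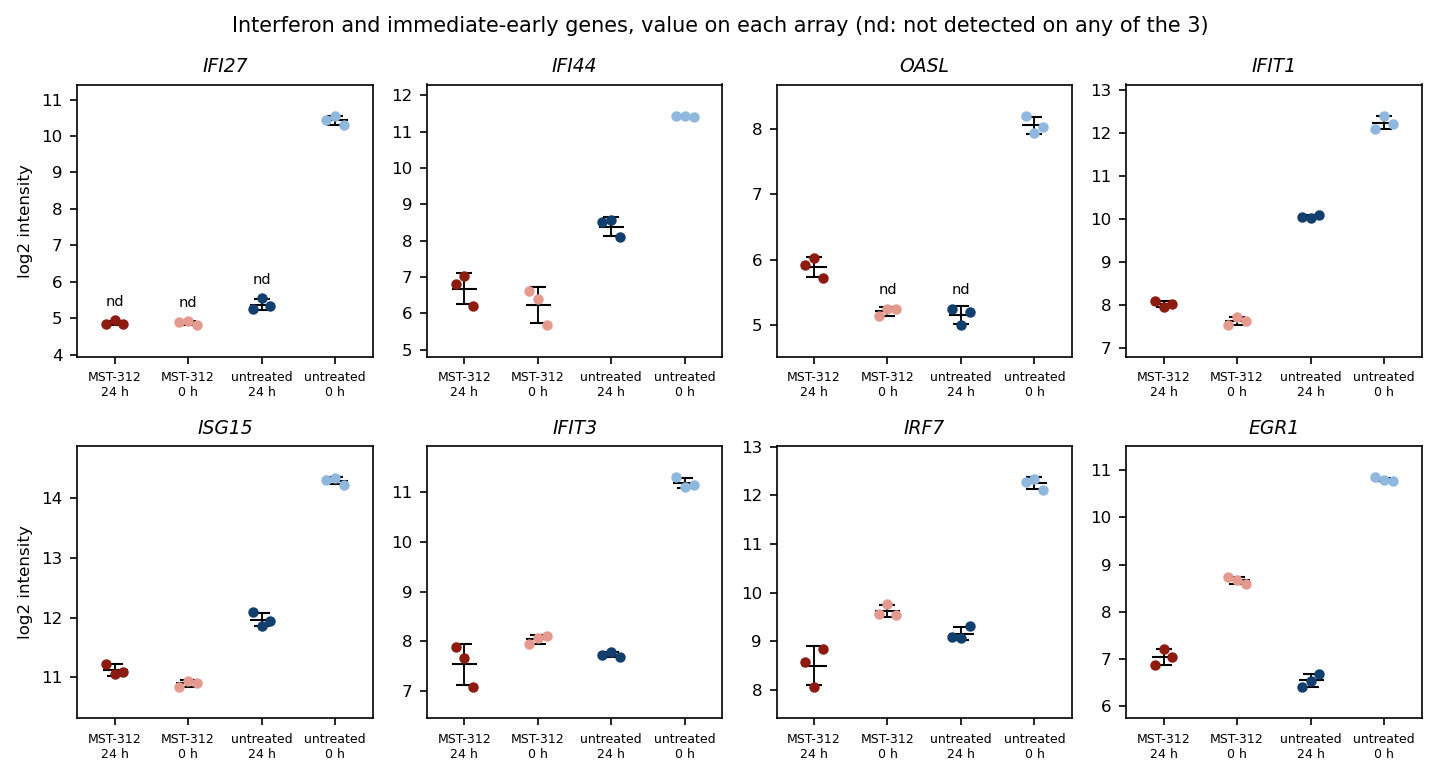
Log2 intensity on each of the 3 arrays per group (points), with the mean and SD (bars), for 7 interferon genes and EGR1, in the order MST-312 at 24 h, MST-312 at 0 h, untreated at 24 h and untreated at 0 h. In every panel untreated cells at 0 h are highest, as for ISG15 with means of 11.12, 10.89, 11.96 and 14.29 in that order, and "nd" marks groups in which no array detected the gene.

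Of 21 STAT, IRF and receptor genes, 6 had a higher interaction and 2 a lower one. IRF7, the factor that amplifies the interferon response, read 8.58, 8.06 and 8.85 with MST-312 at 24 h and 9.57, 9.77 and 9.54 at 0 h. In untreated cells IRF7 read 9.09, 9.07 and 9.31 at 24 h and 12.29, 12.35 and 12.11 at 0 h. IRF7 fell in both treatments, no groups overlapped, and the untreated arrays at 0 h stood above the rest. Its interaction was 1.96 (SE 0.21, adjusted p = 6.58e-07), and its other 2 probes gave 2.20 and 1.74. SOCS1, which blocks JAK kinases, rose by 0.46 with MST-312 and fell by 0.57 in untreated cells (interaction 1.03, SE 0.15, adjusted p = 2.77e-05). STAT3 fell in both and had 0.62 (SE 0.14, adjusted p = 0.00232). MHC class I presentation had 6 of 18 higher and 2 lower. HLA-E, a ligand of natural killer cell receptors, fell by 1.34 with MST-312 and fell by 2.20 in untreated cells (interaction 0.86, SE 0.17, adjusted p = 0.000649), and HLA-B, a classical class I chain, had 0.94 (SE 0.18, adjusted p = 0.00064). HLA probes can cross-react between alleles and paralogs. MHC class II genes had 5 of 19 higher and 1 lower, with 2 higher under median scaling. Most of the 19 fell in both treatments, 14 with MST-312 and 17 in untreated cells, against 26.5% and 30.5% of all genes.

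Immediate-early genes, which growth signals induce within minutes, had 11 of 16 higher and 0 lower. Over release, 9 fell and 1 rose with MST-312, against 26.5% and 24.5% of all genes, with a median change of -0.46. In untreated cells all 16 fell, against 30.5% of all genes, with a median change of -1.26. EGR1, a zinc finger factor, read 6.86, 7.22 and 7.04 with MST-312 at 24 h and 8.73, 8.68 and 8.59 at 0 h. Untreated cells gave 6.41, 6.54 and 6.69 at 24 h and 10.85, 10.80 and 10.77 at 0 h. The 4 groups did not overlap, and the untreated cells held both the highest and the lowest values. The interaction of EGR1 was 2.63 (SE 0.16, adjusted p = 4.02e-10). SPRY2, an inhibitor of receptor tyrosine kinase signalling, rose by 0.57 with MST-312 and fell by 1.45 in untreated cells (interaction 2.01, SE 0.17, adjusted p = 2.56e-08). FOS, a subunit of AP-1, had 1.39 (SE 0.20, adjusted p = 2.73e-05), and 0.71 without background correction. DUSP1, a phosphatase that turns off MAP kinases, had 1.04 (SE 0.13, adjusted p = 3.13e-06). At 24 h 14 of the 16 were higher with MST-312 than in untreated cells and 1 lower, against 28.9% and 32.9% of all genes. At 0 h 7 were higher and 5 lower, against 27.6% and 31.7%.

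B cell receptor and coreceptor genes went both ways, with 8 of 25 higher and 6 lower and a median of -0.01. Over release 22 of the 25 fell with MST-312 and 22 in untreated cells, against 26.5% and 30.5% of all genes. CD27, a costimulatory receptor of memory B cells, read 8.19, 8.14 and 7.75 with MST-312 at 24 h and 9.89, 9.90 and 9.80 at 0 h. In untreated cells CD27 read 9.50, 9.44 and 9.29 at 24 h and 9.76, 9.53 and 9.50 at 0 h. The treated arrays at 24 h lay below all others, and the treated arrays at 0 h above them. The interaction of CD27 was -1.65 (SE 0.15, adjusted p = 9.71e-08). SYK, the kinase next to the B cell receptor, fell by 2.18 with MST-312 and fell by 1.02 in untreated cells (interaction -1.16, SE 0.23, adjusted p = 0.000595). VPREB3, a chaperone of immunoglobulin chains, fell by 0.87 with MST-312 and fell by 1.96 in untreated cells (interaction 1.09, SE 0.18, adjusted p = 0.000105). MS4A1, the CD20 antigen, had 1.06 (SE 0.12, adjusted p = 2.19e-06), whereas its other probe gave 0.15, which did not pass, and the mean of both 0.60. Of 20 B cell and plasma cell transcription factors, 4 were higher and 2 lower. ID2, an inhibitor of E proteins, had 1.15 (SE 0.19, adjusted p = 0.000116). AFF3, a super elongation complex subunit on the same list, fell by 2.05 with MST-312 and rose by 0.31 in untreated cells (interaction -2.36, SE 0.18, adjusted p = 5.06e-09).

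Chemokines, their receptors and ICAM1 had 6 of 19 higher and 4 lower. CCL3, a chemokine that B cells secrete on activation, read 7.10, 7.24 and 7.003 with MST-312 at 24 h and 8.26, 8.55 and 8.25 at 0 h. Untreated cells gave 5.62, 6.15 and 5.97 at 24 h and 8.94, 8.91 and 8.96 at 0 h. CCL3 fell in both, to the lowest values in untreated cells at 24 h, and no groups overlapped. The interaction was 1.78 (SE 0.20, adjusted p = 1.02e-06), or 1.06 without background correction, and its near-identical copy CCL3L1 had 1.72. Signal shared between probes of the 2 genes was not tested. CXCL10, an interferon-induced chemokine, had the opposite sign, at -1.21 (SE 0.22, adjusted p = 0.000344), or -0.70 without background correction. NF-kB subunits and inhibitors had 5 of 17 lower and 2 higher, and the lower count was 2 under median scaling. It was also 2 or 3 without replicate 2 or 3 of MST-312 at 24 h, replicate 1 of MST-312 at 0 h, replicate 1 of untreated cells at 24 h or replicate 3 of untreated cells at 0 h. TNFAIP3, the A20 deubiquitinase that limits NF-kB, fell by 0.97 with MST-312 (interaction -0.84, SE 0.17, adjusted p = 0.000793). CD40, costimulation and BAFF receptor genes had 3 of 14 lower and 1 higher, and the higher member was the cytokine gene LTA (lymphotoxin alpha), at 1.18 (SE 0.20, adjusted p = 0.000124).

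Most box C/D small nucleolar RNAs rose with MST-312. Of 101 box C/D RNAs, which guide ribosomal RNA methylation, 83 rose and 6 fell with MST-312, against 24.5% and 26.5% of all genes. In untreated cells 28 of the 101 rose and 12 fell, against 29.0% and 30.5% of all genes. The interaction was higher for 50 and lower for 1, with a median of 0.64. At 24 h 97 of the 101 were higher with MST-312 than in untreated cells and 0 lower, against 28.9% higher over all genes, and at 0 h 94 were higher and 0 lower, against 27.6%. The median difference was 1.90 at 24 h and 1.32 at 0 h, and 40 of the 101 were undetected in 1 or more groups. SNORD21 read 11.22, 11.19 and 11.08 with MST-312 at 24 h and 9.30, 9.23 and 9.23 at 0 h. In untreated cells it read 6.98, 7.10 and 7.20 at 24 h and 7.03, 7.28 and 6.91 at 0 h. Every treated array lay above every untreated one, and the untreated groups overlapped. Its interaction was 1.89 (SE 0.19, adjusted p = 1.9e-07). SNORD46 read 12.55, 12.44 and 12.46 with MST-312 at 24 h and 11.09, 11.12 and 11.02 at 0 h. SNORD46 read 7.16, 7.04 and 6.70 in untreated cells at 24 h and 7.04, 7.11 and 6.81 at 0 h. The order was the same as for SNORD21, and the interaction was 1.43 (SE 0.29, adjusted p = 0.00085). SNORD68 had 1.62 (SE 0.12, adjusted p = 4.56e-09). SNORD53 was undetected in untreated cells at both times, and was at least 13.7-fold higher with MST-312 at 24 h and at least 6.23-fold higher at 0 h. SNORD78 was the lower member, at -0.86 (SE 0.22, adjusted p = 0.0058), and -0.44 without background correction. Of 66 box H/ACA and Cajal body RNAs, which guide pseudouridylation, 24 were higher and 5 lower, with a median of 0.35. The lower count was 2 or 3 without replicate 3 of MST-312 at 24 h, replicate 3 of MST-312 at 0 h, any 1 array of untreated cells at 24 h or replicate 3 of untreated cells at 0 h. SNORA62 had 1.25 (SE 0.18, adjusted p = 2.24e-05) and SNORA2B 1.38 (SE 0.21, adjusted p = 5.82e-05), or 0.83 and 0.70 in that order without background correction. Of 16 noncoding host genes of these RNAs, 5 were higher and 0 lower. The higher count was 3 under median scaling, 9 after cyclic loess and 3 without replicate 1 of MST-312 at 24 h, replicate 1 of MST-312 at 0 h or replicate 3 of untreated cells at 24 h. SNHG15, 1 of these hosts, rose by 1.33 with MST-312 and 0.39 in untreated cells (interaction 0.94, SE 0.10, adjusted p = 7.39e-07). The labels name a MessageAmp kit for cRNA synthesis, and what part of a small RNA its probe read on these arrays was not tested.

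Survival, quiescence and redox lists had a few higher calls each. The BCL2 family had 5 of 14 higher and 0 lower. HRK, a pro-apoptotic BH3-only protein, fell by 0.83 with MST-312 and fell by 1.86 in untreated cells (interaction 1.03, SE 0.16, adjusted p = 4.2e-05), and BIK, another such protein, had 0.77 (SE 0.13, adjusted p = 0.000175). Quiescence and FOXO genes had 7 of 20 higher and 2 lower. TXNIP, which restrains glucose uptake, read 12.15, 11.86 and 12.24 with MST-312 at 24 h and 13.47, 13.51 and 13.28 at 0 h. Untreated cells gave 11.12, 10.94 and 10.96 at 24 h and 13.32, 13.41 and 13.10 at 0 h. It fell in both and was lowest in untreated cells at 24 h, and the groups at 0 h overlapped. The interaction of TXNIP was 0.93 (SE 0.16, adjusted p = 0.000149). KLF2, a quiescence factor of lymphocytes, was a lower member, at -0.71 (SE 0.12, adjusted p = 9.73e-05). Among p53 targets MDM2, the ligase that degrades p53, had 0.63 (SE 0.15, adjusted p = 0.00323). SAT1, which breaks down polyamines, read 10.58, 10.59 and 10.69 with MST-312 at 24 h and 10.998, 10.95 and 11.07 at 0 h. In untreated cells SAT1 read 9.82, 9.88 and 9.90 at 24 h and 12.10, 12.09 and 12.14 at 0 h. No groups overlapped, and the untreated cells held the highest and the lowest values. Its interaction was 1.85 (SE 0.10, adjusted p = 2.31e-11). NQO1, a quinone reductase under NRF2, read 10.66, 10.61 and 10.64 with MST-312 at 24 h and 9.52, 9.70 and 9.599 at 0 h. NQO1 read 9.54, 9.33 and 9.66 in untreated cells at 24 h and 10.08, 10.01 and 9.90 at 0 h. The treated arrays at 24 h lay above all others. The interaction of NQO1 was 1.52 (SE 0.14, adjusted p = 6.7e-08). The NRF2 and antioxidant list as a whole had 4 of 16 higher and 1 lower. BHLHE40, a clock-related repressor induced by hypoxia, had 1.35 (SE 0.12, adjusted p = 6.79e-08). Without background correction the values were 0.60 for HRK and 0.38 for MDM2.

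Several genes outside the lists also had large interactions. CLIC3, an intracellular chloride channel family protein, had the highest interaction among genes detected in all 4 groups. It read 10.13, 10.21 and 10.03 with MST-312 at 24 h and 6.92, 7.30 and 7.18 at 0 h. In untreated cells it read 7.20, 7.005 and 7.07 at 24 h and 8.86, 8.80 and 8.95 at 0 h. The treated arrays at 24 h were the highest, and the treated arrays at 0 h overlapped with the untreated arrays at 24 h. The interaction of CLIC3 was 4.77 (SE 0.14, adjusted p = 3.21e-15), after 0.42 at 4 h and 1.89 at 8 h. PLCH2, a phospholipase C, read 10.80, 10.77 and 10.92 with MST-312 at 24 h and 8.60, 8.73 and 8.62 at 0 h. PLCH2 read 5.97, 6.08 and 6.36 in untreated cells at 24 h and 6.71, 6.81 and 6.25 at 0 h. The treated arrays were far above the untreated ones at both times, and the untreated groups overlapped. Its interaction was 2.64 (SE 0.18, adjusted p = 1.04e-09). HES6, a bHLH factor, had 2.51 (SE 0.13, adjusted p = 3.6e-11), and SIGLEC14, a sialic acid receptor, had 2.22 (SE 0.21, adjusted p = 1.1e-07). CCPG1, a receptor for degradation of the endoplasmic reticulum, had 2.82 (SE 0.17, adjusted p = 3.44e-10), or 1.42 without background correction. ZNF467, a zinc finger protein, had 2.97 (SE 0.20, adjusted p = 1.47e-09), or 1.61 without it. TLR1, a receptor for bacterial lipopeptides, had an interaction of 2.83 (SE 0.61, adjusted p = 0.0014), with the largest SE of the genes described here.

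On the negative side, GPHN, the scaffold gephyrin, read 7.20, 6.88 and 6.98 with MST-312 at 24 h and 8.79, 8.50 and 8.32 at 0 h. In untreated cells GPHN read 8.81, 8.57 and 8.44 at 24 h and 7.88, 7.72 and 7.56 at 0 h. The treated arrays at 24 h lay below all others, and the treated arrays at 0 h overlapped with the untreated ones at 24 h. The interaction of GPHN was -2.40 (SE 0.18, adjusted p = 4.5e-09), and its other probe gave -1.06. DESI1, a deSUMOylating protease, read 7.06, 6.89 and 6.96 with MST-312 at 24 h and 8.21, 8.08 and 7.99 at 0 h. Untreated cells gave 9.95, 9.96 and 9.99 at 24 h and 9.15, 9.19 and 9.13 at 0 h. The 4 groups did not overlap, and untreated cells at 24 h were highest. Its interaction was -1.93 (SE 0.12, adjusted p = 4.65e-10). DDIAS, an apoptosis suppressor induced by DNA damage, had -2.15 (SE 0.13, adjusted p = 2.88e-10). EHBP1, an endocytic adaptor, had -2.26 (SE 0.24, adjusted p = 4.6e-07), after -2.79 at 4 h. JAML, an adhesion protein of leukocytes, had -1.97 (SE 0.18, adjusted p = 9.81e-08). Without background correction the values were -1.33 for EHBP1 and -1.18 for JAML.

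**Figure D5:**
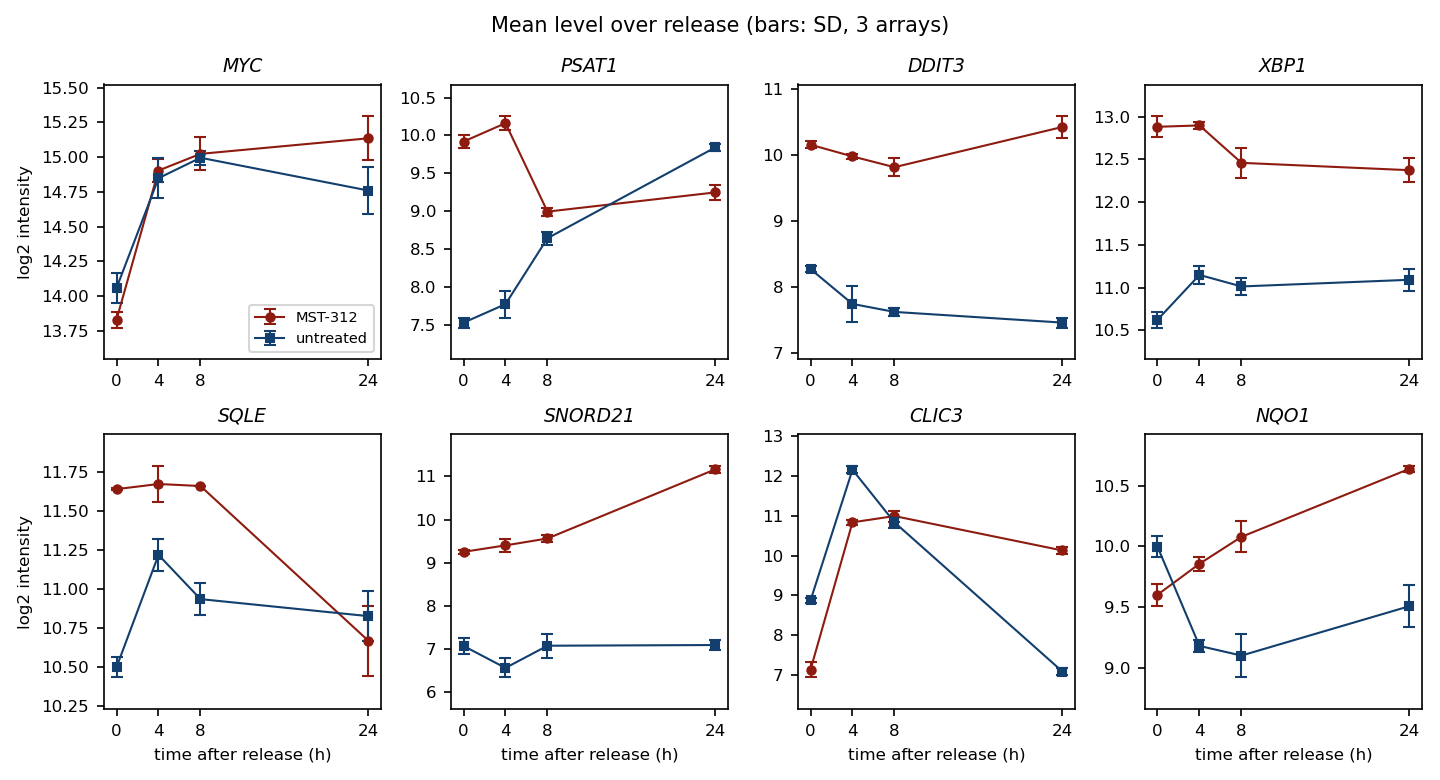
Mean log2 intensity (bars: SD, 3 arrays) at 0, 4, 8 and 24 h of release for 8 genes, with MST-312 in red circles and untreated cells in blue squares. PSAT1 stands at 9.25 at 24 h and 9.92 at 0 h with MST-312, and at 9.84 at 24 h and 7.54 at 0 h in untreated cells.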

How the data were processed

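Total RNA of P493 cells was made into biotinylated cRNA with a MessageAmp kit and hybridised to 1-colour Illumina beadchips, per the labels' protocols. The deposited summary intensities per probe are not normalized, and each comes with a detection p-value, per the file headers. The authors' deposited processed intensities were an alternative, and the method behind them is not given by the labels or headers. In limma 3.58.1 (R 4.3.3), intensities were background-corrected through the detection p-values (neqc, offset 16), quantile-normalized and taken to log2. Quantile normalization removes any change in total RNA per cell. A probe was kept where any group had it detected (p below 0.05) by each of its 3 arrays, and 17882 probes were. Of these, 13518 had 1 gene symbol in the platform annotation, and the probe with the highest mean stood for each of 10246 genes (2603 had several). A linear model with 8 group means over 24 arrays gave moderated tests (16 residual degrees of freedom), two-sided, with Benjamini-Hochberg adjustment over all genes. The fit was tested on simulated data.

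A fold given as at least a value sets an undetected group at the lowest signal of a detected probe on its arrays. MYC, MAX and TERT were named, although MAX did not pass the threshold and TERT was not tested. The rest of the naming rule took only genes past the threshold. It took the 15 largest interactions in each direction among genes detected in all 4 groups. It also took the brightest 6 in each direction among those undetected in a group. From each gene list it took up to 6, with up to 2 against the list's median. The gene lists, rule and members were chosen with earlier results of these data known. Same-numbered replicates had deviation correlations of -0.112 to 0.368, not all above 0.1, so the numbers were not taken to pair arrays. However, 11 of 12 arrays correlated best with their own number in another group, and the main test does not model this. No chip or scan identifier was found in the sources, so batches were not analysed here. Background correction, normalization, filter, probe choice, replicate block and left-out arrays were varied.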

Additional observations from a re-analysis of the deposited data

Results flagged for a closer look

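Release changes past the threshold ran in opposite directions in the treatments for 294 genes. Of these, 132 rose with MST-312 and fell in untreated cells, and 162 fell with MST-312 and rose in untreated cells. A called interaction (limma, adjusted p below 0.05) was a condition for entering this set, so it adds no further support. Among the genes with the largest interactions and detected in all 4 groups, those that rose with MST-312 and fell in untreated cells had interactions of 4.77 for CLIC3, 2.97 for ZNF467, 2.82 for CCPG1, 2.64 for PLCH2, 2.59 for IFIT1, 2.51 for HES6 and 2.22 for SIGLEC14. Those that fell with MST-312 and rose in untreated cells had interactions of -2.98 for PSAT1, -2.40 for GPHN, -2.36 for AFF3, -2.28 for CDK1, -2.26 for EHBP1, -2.15 for DDIAS, -2.08 for CDCA5, -2.06 for CENPK, -1.97 for JAML and -1.93 for DESI1. The opposite changes were at least 1 on the log2 scale on both sides for 5 of the 294 genes.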

How the results depend on the processing

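Under 26 alternatives, 12 of which left out 1 array, the 6 counts of called genes stayed within 1.5 times the reported ones. Genes with a higher interaction numbered 1302 to 1409 with 1 array left out and 1088 (median scaling) to 1740 otherwise, and genes with a lower one 1346 to 1575 and 1288 to 1845. The MYC interaction stayed past the threshold. Of 40 gene list counts followed, 31 stayed within 1.5 times under every alternative. Besides the settings given with the lists, the moderated test with trend and robust options moved 1 count. Leaving out the filter on dim probes also moved 1. With the replicate number as a block, 1647 genes were higher and 1787 lower, and within each release time 1740 and 1845. Among the 315 genes open to naming the block over all arrays changed no call, and the block within each release time ended those of EPB41L4A-AS1 and MRPS14, while 11 of 12 arrays correlated best with their own number in another group, a hint from the data and not the design. Of those 315 genes, 246 kept their side of the threshold throughout, and 69 did not. The sign reversed for EPCAM (0.023 without background correction, 0.021 with the authors' values), TMEM71 (0.155 and 0.152) and JAK2 (0.019 with undetected groups at the lowest detected signal), and the cause was not tested. Without background correction 86 of 314 interactions moved by over 1.5 times, 85 of them toward 0. Signal over background limits all fold sizes of dim probes, and 3 arrays per group limit precision.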

Other observations

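Many mitochondrial and proteasome genes rose in both treatments. Oxidative phosphorylation complexes had 14 of 72 lower and 3 higher, with 38 rising over release with MST-312, against 24.5% of all genes, and 50 in untreated cells, against 29.0%. Mitochondrial ribosomal proteins had 17 of 79 lower and 3 higher, and mitochondrial import and folding genes 9 of 28 lower and 1 higher. Proteasome genes had 5 of 27 lower and 0 higher, and 3 lower under median scaling. The CCT chaperonin, which folds actin and tubulin, rose in 8 of 8 members in each treatment and had 1 lower interaction. Shelterin and CST genes, which cap telomeres, had 1 of 10 higher and 1 lower. Over release 5 of these 10 fell with MST-312, against 26.5% of all genes, and 2 in untreated cells, against 30.5%. Iron uptake and storage had 3 of 10 higher and 2 lower, and hypoxia targets 3 of 15 higher and 2 lower. The interaction counts are set beside 14.5% called higher and 15.4% called lower over all genes, with no test across a list.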
